A study of Homo sapiens with 71 samples.

Results

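The comparison set 8 surface waters, CRMI, MAWI, IHIN, GRMI, SRMI, ORNY, MIWI and MROH (the CRMI side), against 6 others, GRNY, LRMN, CROH, JRMI, FRWI and VROH (the GRNY side), by the RNA of HepG2 cells grown in them. The sides are the 2 ends of the main axis of variation between sites, so the difference between them was chosen from these same values. It is given as a description, with no p-value. Of 71 libraries in all, 52 entered the contrast, 29 on the CRMI side and 23 on the GRNY side. A library each of CRMI, SRMI and VROH was left out. The sites BRWI and RRMI (4 libraries each) lie on neither side and were not in the contrast, but their means were among the 16 that formed the axis. The 8 controls had no part in either.

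HepG2 is a human hepatoma line that keeps many hepatocyte functions. Flasks of cells were pooled, spread over dishes and precultured for 72 h, then kept for 48 h in medium made up to 75% with filtered water of a single site, or with purified water in the controls. Serum, antibiotics and buffer were the same in all dishes, and no other agent or genetic change was used. Site names are the codes of the labels, for tributaries of the Great Lakes, with 4 dishes for each site but MIWI, which had 3. Dishes are the replicates, and since all cells came from 1 pooled batch, p-values measure the spread between dishes and not between independent cultures or water samples. RNA was counted with TempO-Seq, which ligates a pair of detector probes on each target RNA and sequences the ligated pair, so a value rests on the probe site and not on the whole transcript.

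Several gene groups recur below. YAP and its partner TEAD, the end point of the Hippo pathway, drive genes such as ANKRD1, CCN1 and CCN2 in spread, tense or growing cells and are held back in crowded ones. Immediate early genes, such as JUN and PIM1, follow growth factor signals within minutes to hours. Metallothioneins are small cysteine-rich proteins that bind zinc, copper and cadmium, and the factor MTF1 induces them through metal response elements when these metals rise. Hepcidin, the product of HAMP, is the liver hormone that limits iron uptake.

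The promoters of ANKRD1, CCN2 and MT2A, of the genes described below, are shown first: ANKRD1 and CCN2 were among the most different between the sides, and MT2A was higher at the midpoint of the sides than in purified water and did not separate them. Each run is 300 bases from RefSeq (GRCh38.p14), 250 before the transcription start and 50 after it, read 5′ to 3′ on the gene's strand. Capitals in ANKRD1 and CCN2 mark GGAATG, the core that TEAD factors bind, and in MT2A TGCACNC or TGCGCNC, the core of the metal response element. Matches on both strands are marked.
ANKRD1 (chr10:90921038-90921337, minus strand): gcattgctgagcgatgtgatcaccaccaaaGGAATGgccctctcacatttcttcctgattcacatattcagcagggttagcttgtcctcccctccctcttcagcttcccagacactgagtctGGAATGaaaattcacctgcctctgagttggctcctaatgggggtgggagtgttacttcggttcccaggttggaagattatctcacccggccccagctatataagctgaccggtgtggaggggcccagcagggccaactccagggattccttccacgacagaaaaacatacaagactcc
CCN2 (chr6:131951323-131951622, minus strand): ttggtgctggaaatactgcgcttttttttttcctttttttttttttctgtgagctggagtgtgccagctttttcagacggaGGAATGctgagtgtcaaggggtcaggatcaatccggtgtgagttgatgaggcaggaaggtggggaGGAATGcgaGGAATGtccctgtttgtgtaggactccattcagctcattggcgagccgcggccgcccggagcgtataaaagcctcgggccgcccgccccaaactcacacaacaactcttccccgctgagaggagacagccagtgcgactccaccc
MT2A (chr16:56608334-56608633, plus strand): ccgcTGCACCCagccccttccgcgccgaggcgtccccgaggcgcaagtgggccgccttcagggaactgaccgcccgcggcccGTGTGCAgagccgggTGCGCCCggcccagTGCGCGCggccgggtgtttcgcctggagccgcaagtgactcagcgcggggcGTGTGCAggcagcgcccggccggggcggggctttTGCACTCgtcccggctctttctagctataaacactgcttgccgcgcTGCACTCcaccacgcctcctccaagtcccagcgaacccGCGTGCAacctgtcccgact
The window held 2 matches of GGAATG in ANKRD1 and 3 in CCN2. Of 35116 promoters of the same length, 14.03% held at least 1 such match, 1.37% at least 2 and 0.128% at least 3. The MT2A window held 6 matches of TGCACNC and 2 of TGCGCNC, which do not overlap in their definition, while 29.6% of all promoters held either motif and 0.074% held at least 6. A match describes the letters in the window and is not evidence that a factor was bound.

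Numbers of reads overlapped between the sides. Site means of the total count spanned 3.49 to 7.62 M counts (M, 1e6) on the CRMI side (median 5.69) and 5.34 to 7.09 M on the GRNY side (median 6.17), and no difference between the sides was detected in total count, in features detected or in the share of the 10 most abundant features (two-sided exact permutation tests over 14 site means, p = 0.400, 0.658 and 0.411; adjusted p = 0.616, 0.658 and 0.616). These measures came from the same counts that placed the sites on their sides, and 14 site means are few. The tests therefore do not show that the sides are equal in them. The controls were deeper, at 8.18 to 14.5 M. The left-out libraries ran from 0.00887 to 7.30 M. HepG2 identity was present throughout: all 14 hepatocyte and HepG2 markers, ALB and AFP among them, were detected, with summed levels of 164280 to 194090 CPM (counts per M counts of the library) over CRMI-side sites, 170990 to 197150 CPM over GRNY-side sites and 141700 to 198800 CPM over controls. Of the 12 immune cell markers 6 were at a testable level, and their sum was 1067 to 1545 CPM on the CRMI side, 2546 to 3475 CPM on the GRNY side and 1641 to 2219 CPM in controls. That sum was mostly LYZ, the lysozyme gene, at 819 to 1271 CPM over CRMI-side sites and 2322 to 3236 CPM over GRNY-side sites. Fibroblast and stellate (2 of 9 tested), endothelial (3 of 8) and other epithelial markers (1 of 9) summed to at most 61.4, 14.4 and 7.77 CPM in any group. Whether other cells played a part was not tested, and in RNA from whole dishes a change in the number of cells that express a gene and a change per cell cannot be told apart.

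The first principal component over the 16 site means carried 56.8% of their variance and the second 11.2%. All 29 CRMI-side libraries scored above all 23 GRNY-side libraries on it, at 1.46 to 35.3 (median 20.4) against −41.2 to −2.96 (median −22.0), which describes how the sides were formed. The site nearest the other side was MIWI on the CRMI side, with a mean score of 14.5 ± 12.6 (SD, n = 3), and VROH on the GRNY side, at −14.9 ± 11.3 (n = 3). The sites just outside both sides were BRWI, at 0.259 ± 9.34, and RRMI, at −6.24 ± 5.95 (n = 4 each). The controls had no weight in forming the axis and scored 0.341 ± 7.95 (n = 8). Control dishes spanned −13.8 to 10.4, wider than the 4 RRMI dishes at −12.7 to 1.09.

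**Figure D1:**
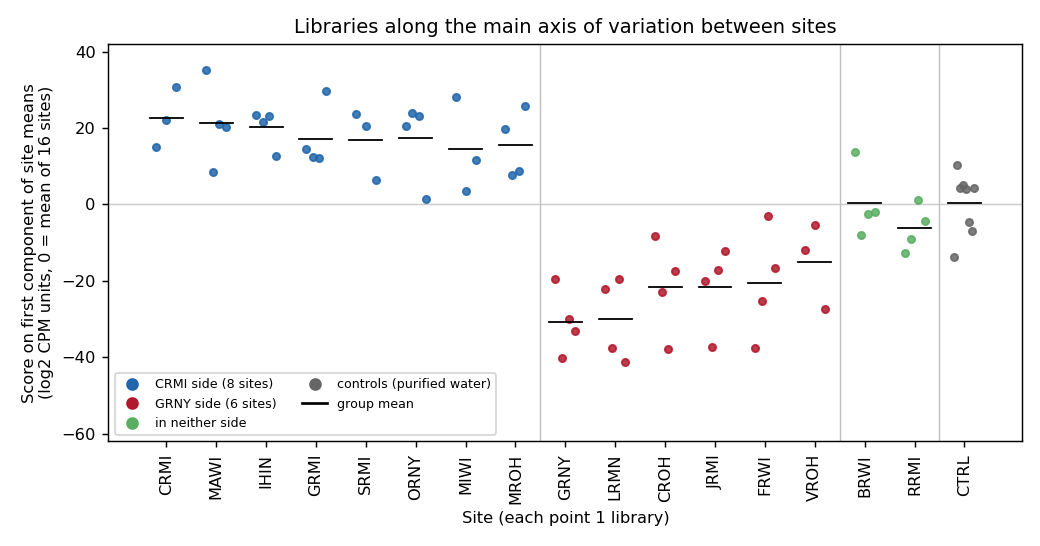
Score of each library (points) on the first component of the 16 site means, in log2 CPM units, with group means as bars. CRMI-side libraries lie between 1.46 and 35.3 and GRNY-side libraries between −41.2 and −2.96, and the means of BRWI (0.259), RRMI (−6.24) and the controls (0.341) lie between the site means of the sides. Single BRWI and control dishes reach into the ranges of both sides, and RRMI dishes into that of the GRNY side.

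Of 6916 features tested, 796 were higher and 656 lower on the CRMI side, counting a feature as separated when no site mean of one side reached into the other and the sides differed by at least 0.5 on the log2 CPM scale. These are 11.5% and 9.49% of all features, the background for each gene list below. With no limit on size, 1343 (19.4%) were higher and 1188 (17.2%) lower without overlap, and 277 features differed by at least 1 log2. With all libraries kept, 72 were lower. Differences below are CRMI side minus GRNY side in log2 CPM, with the standard error over site means.

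The controls lay between the sides for most separated features. The control mean fell in the gap between the sides for 532 of the 796 features higher on the CRMI side (66.8%) and for 495 of the 656 lower ones (75.5%), inside the CRMI-side range for 199 and 83, inside the GRNY-side range for 65 and 78, and beyond both for 0. With the GRNY-side mean at 0 and the CRMI-side mean at 100, the control mean had a median position of 61.8 among features higher on the CRMI side and 48.0 among lower ones. BRWI had median positions of 48.4 and 45.3 and RRMI of 37.8 and 28.4. RRMI fell inside the GRNY-side range for 296 (37.2%) and 266 (40.5%) of them. In the gap between the sides lay RRMI for 376 (47.2%) and 312 (47.6%), and BRWI for 364 (45.7%) and 310 (47.3%).

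Dishes in purified water also varied among themselves in the separated features, with a median SD of 0.25 log2, against 0.22 over all features. For 402 of the 1452 separated features (27.7%), the 8 control dishes alone spanned both side means, and for 371 (25.6%) all 8 lay strictly between the side means. Over all 6916 features these shares were 67.3% and 7.22%. Separated features were picked for side means at least 0.5 log2 apart. That choice alone lowers the first share and raises the second, so the comparison is no test. Of the separated genes described below that the naming rule picked, the first kind holds HNRNPCL4, DUT, LSM5, PEX3, GCSH, ASNS, KDM3A and MCM4, higher on the CRMI side, and PLK1, CENPF, P4HA1, ETV5, CLU, ASMTL and FLNA, lower on it.

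YAP target genes were lower on the CRMI side, with 10 of 16 tested members lower and 1 higher (background 9.49% and 11.5%) and a median difference of −0.70, against 0.03 over all features. ANKRD1, a cardiac and stress-induced ankyrin repeat protein and a standard YAP readout (ENSG00000148677, chr10:90912096-90921276 in GRCh38, minus strand), had site means of 145 to 256 CPM on the CRMI side (median 181) and 566 to 729 CPM on the GRNY side (median 666). The 8 control dishes had 369 to 683 CPM (median 483). No dish of either side overlapped the other: the highest CRMI-side dish had 274 CPM and the lowest GRNY-side dish 448 CPM, while all controls exceeded every CRMI-side dish. The difference was −1.86 ± 0.11. CCN2, a secreted matricellular protein also called CTGF (ENSG00000118523, chr6:131948176-131951373, minus strand), showed the same order, with 117 to 192 CPM on the CRMI side (median 144), 397 to 739 CPM on the GRNY side (median 457) and 258 to 485 CPM in controls (median 290), a difference of −1.72 ± 0.14.

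Other YAP targets lay lower on the CRMI side by less. They were LATS2, a Hippo kinase that YAP induces as feedback (−1.26 ± 0.08), CCN1 (−1.10 ± 0.12), the junction scaffold AMOTL2 (−1.09 ± 0.08), the phosphatase PTPN14 (−0.91 ± 0.11), IGFBP3 (−0.90 ± 0.11), the receptor kinase AXL (−0.76 ± 0.08), AJUBA (−0.63 ± 0.06) and GADD45A (−0.51 ± 0.08). CCN1 rests on few reads, with 0 to 8 per GRMI dish and 7 to 21 per LRMN dish. Its single dishes overlap between the sides (2.12 CPM in MROH 3, 1.15 CPM in LRMN 1). F3, tissue factor, was higher on the CRMI side (0.79 ± 0.11). The other 5 tested targets, DOCK5, CRIM1, ASAP1, NUAK2 and NT5E, did not separate the sides by the rule (−0.47 to 0.35). Among 9 tested components of the Hippo pathway only the cadherin FAT1 separated the sides (−0.89 ± 0.08). None of the 11 separated YAP targets had control dishes spanning both side means. Of 24 genes of actin and focal adhesions, 5 were lower and 0 higher on the CRMI side, among them ACTG1, FLNA, CFL1 and CNN2, with a list median of −0.32.

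**Figure D2:**
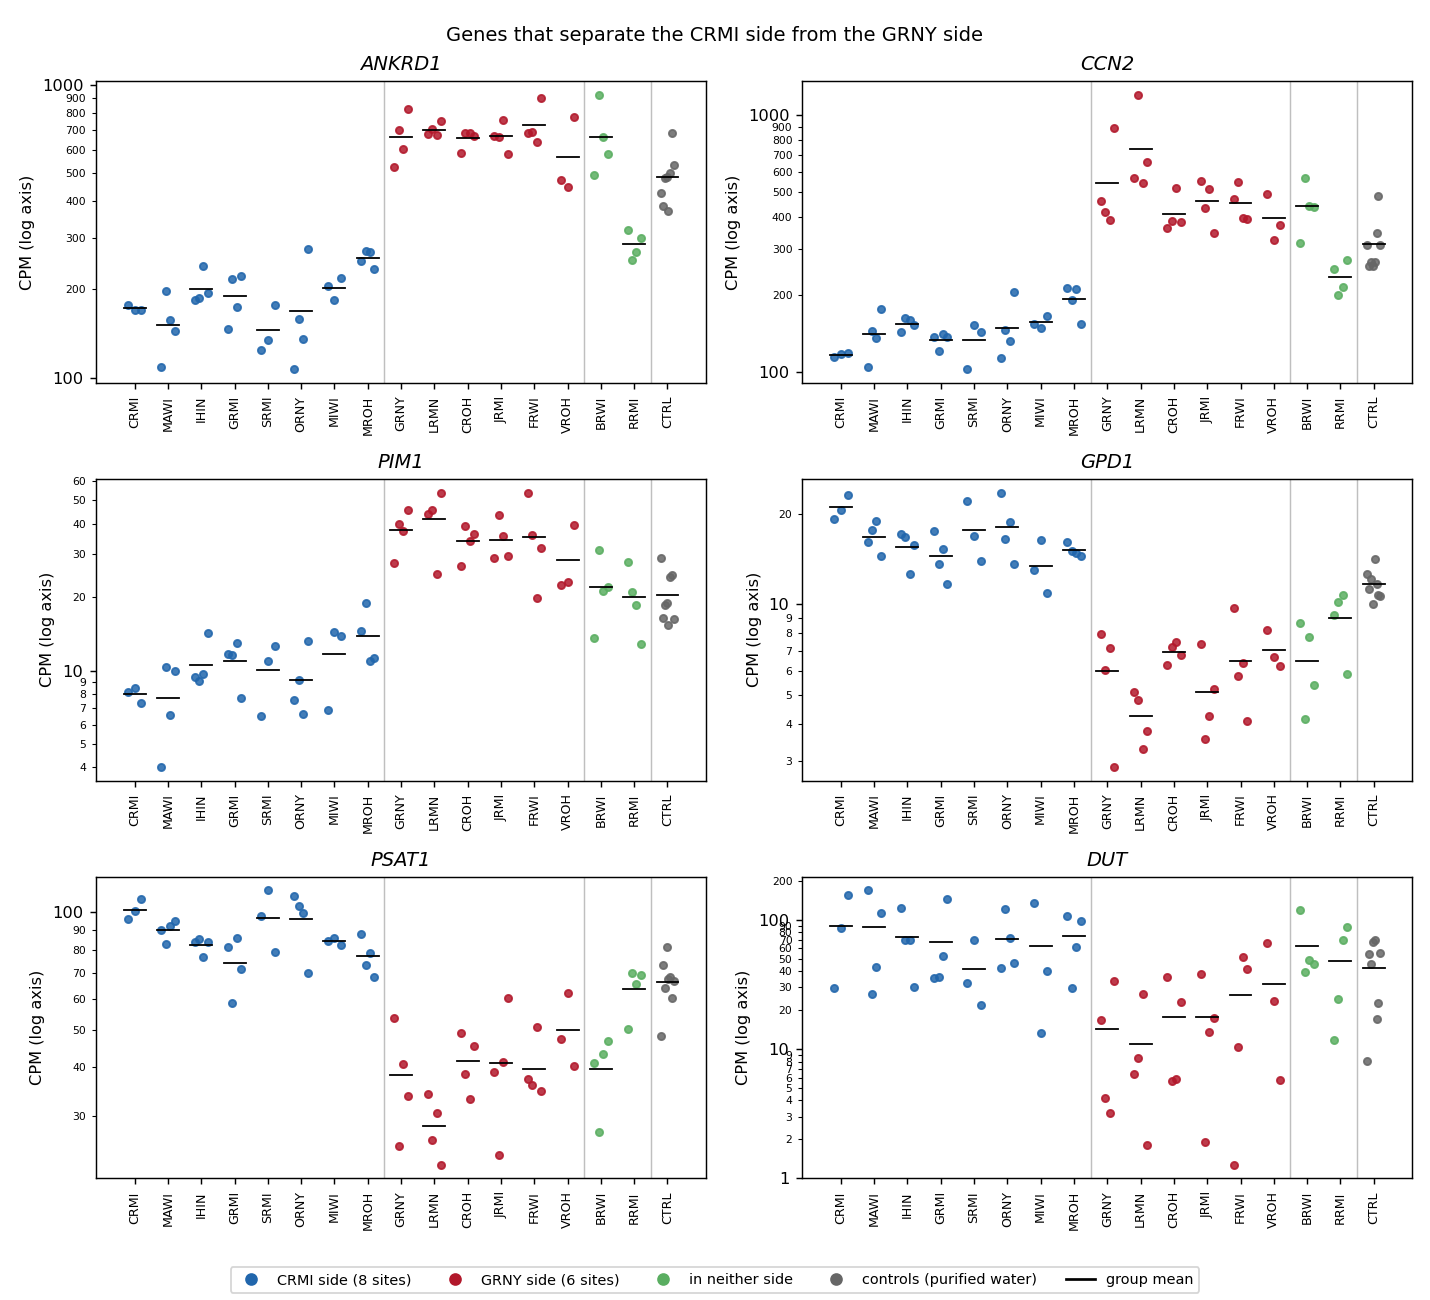
CPM on a log axis in each dish (points) and site mean (bars) for ANKRD1, CCN2, PIM1, GPD1, PSAT1 and DUT. ANKRD1, CCN2 and PIM1 dishes of the CRMI side lie below those of the GRNY side and GPD1 dishes above them, while DUT dishes overlap widely, controls included.

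Immediate early genes were lower on the CRMI side for 9 of 20 tested members and higher for 0, with a median of −0.59. PIM1, a kinase gene induced by cytokines and growth factors (chr6:37170203-37175426, plus strand), had site means of 7.72 to 13.9 CPM on the CRMI side (median 10.3) and 28.4 to 42.1 CPM on the GRNY side (median 34.9), with control dishes at 15.4 to 28.9 CPM, all between the side means. Its difference was −1.77 ± 0.13. The AP-1 subunits JUNB (−1.02 ± 0.08), JUN (−0.94 ± 0.13) and JUND (−0.93 ± 0.07) followed, then KLF6 (−0.90), PIM3 (−0.77), IER5 (−0.75), IER3 (−0.70) and NR4A1 (−0.69). Members without separation included FOS (0.01), MYC (0.27) and EGR1 (0.80), so the list did not move as one.

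The EGF family and the feedback genes of ERK, the kinase at the end of that cascade, had 6 of 12 lower and 1 higher. The lower ones were the receptors EGFR (−1.30 ± 0.18) and ERBB2 (−0.78 ± 0.08), the ligand HBEGF (−0.78 ± 0.13), the ERK-driven factors ETV4 (−1.01 ± 0.06) and ETV5 (−0.81 ± 0.07) and the ERK phosphatase DUSP6 (−0.56 ± 0.05). EGFR site means were 5.73 to 13.2 CPM on the CRMI side, 21.6 to 33.4 CPM on the GRNY side, with control dishes at 8.91 to 20.1 CPM. The ligand AREG went the other way (0.85 ± 0.14), at 10.6 to 18.4 CPM on the CRMI side and 6.07 to 8.71 CPM on the GRNY side.

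DNA replication genes stood higher on the CRMI side, with 14 of 34 tested members higher and 1 lower and a median of 0.49. They include the GINS helicase subunits GINS1 (1.61 ± 0.29), GINS3 (1.01 ± 0.15), GINS4 (0.86 ± 0.10) and GINS2 (0.77 ± 0.11), the polymerase subunits POLE2 (1.49 ± 0.20), POLD3 (1.34 ± 0.17) and POLA2 (1.20 ± 0.07), the sliding clamp PCNA (1.21 ± 0.26) and the helicase subunit MCM4 (0.94 ± 0.14). POLD3 had site means of 14.1 to 21.7 CPM on the CRMI side and 4.42 to 8.17 CPM on the GRNY side, with control dishes at 9.57 to 18.2 CPM. MCM4 had 53.4 to 79.5 CPM on the CRMI side and 26.4 to 40.2 CPM on the GRNY side, and its control dishes, at 27.2 to 70.5 CPM, spanned both side means. That was the case for 6 of the 15 separated replication genes. MCM2 (−0.36), MCM5 (0.24), MCM7 (−0.14), CCNE1 (−0.16) and CDT1 (−0.18) did not separate, and the mismatch repair gene MSH6 was lower (−0.53 ± 0.05). POLD2, another subunit of the polymerase of POLD3, is not on the list and was among the 12 lowest features (−1.31 ± 0.18).

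Mitosis genes did not follow the replication genes: 0 of 33 were higher and 5 lower on the CRMI side, with a median of −0.12. The kinase PLK1 differed by −1.11 ± 0.09 (11.4 to 18.5 CPM over CRMI-side sites, 30.0 to 35.9 CPM over GRNY-side sites), followed by CDCA8 (−0.85), the spindle protein PRC1 (−0.77), ECT2 (−0.74) and CENPF (−0.53). MKI67 (−0.49), CDK1 (0.38) and CCNB1 (0.20) did not separate. Of 18 p53 targets 5 were lower and 0 higher, PPM1D (−0.93 ± 0.10), DDB2 (−0.64 ± 0.08), BTG2 (−0.63 ± 0.07), GDF15 (−0.60 ± 0.07) and GADD45A, while CDKN1A did not separate (−0.18 ± 0.16).

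GPD1, which makes glycerol-3-phosphate for lipid synthesis from a glycolytic intermediate (chr12:50103819-50111319, plus strand), had site means of 13.4 to 21.0 CPM on the CRMI side (median 16.2) and 4.25 to 7.03 CPM on the GRNY side (median 6.24). All 8 control dishes, at 10.0 to 14.1 CPM, lay between the side means, and no dish of one side overlapped the other (lowest CRMI-side dish 10.9 CPM, highest GRNY-side dish 9.70 CPM). The difference was 1.45 ± 0.13, and in 18 genes of glycerol-3-phosphate and triglyceride metabolism 1 was higher and 1 lower.

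The ATF4 list, the amino acid stress response, had 5 of 23 higher and 2 lower, with a median of 0.06. PSAT1, an enzyme of serine synthesis, had 74.2 to 101 CPM on the CRMI side (median 87.0), 28.3 to 49.9 CPM on the GRNY side (median 40.4) and 48.2 to 81.3 CPM in control dishes, a difference of 1.17 ± 0.12. ASNS, asparagine synthetase, differed by 1.53 ± 0.30, at 45.9 to 66.9 CPM on the CRMI side and 11.6 to 34.8 CPM on the GRNY side, but its control dishes alone spanned 16.8 to 70.7 CPM. GARS (0.74), ATF5 (0.61) and ALDH1L2 (0.51) were higher, ALDH18A1, of proline synthesis (−1.30 ± 0.10), and GDF15 lower, and ATF4 itself (−0.27) and DDIT3 (0.06) did not separate.

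Enzymes of the urea cycle and amino acid breakdown had 6 of 17 lower and 0 higher, among them OAT (−0.82), HPD (−0.80), ARG2 (−0.78), GOT2 (−0.54) and CPS1 (−0.51). Glycolysis had 4 of 16 lower and 0 higher (HK1, PGAM1, ALDOA and PKM, −0.83 to −0.54). Hypoxia targets had 6 of 23 lower, led by P4HA1 (−1.27 ± 0.13) and CA9 (−1.07 ± 0.08), and 2 higher, KDM3A (1.49 ± 0.27) and PDK1 (0.97 ± 0.07). PPARA targets and fatty acid oxidation had 6 of 25 lower and 1 higher, among them ETFA (−1.07 ± 0.05) and PPARA itself (−0.69 ± 0.07). GLUL, glutamine synthetase and a WNT target in liver, had 99.2 to 108 CPM on the CRMI side, 198 to 244 CPM on the GRNY side and 125 to 169 CPM in control dishes (−1.09 ± 0.05). FTL, the ferritin light chain, had 142 to 178 CPM on the CRMI side and 290 to 453 CPM on the GRNY side (−1.19 ± 0.10), one of 4 of 17 hepcidin and iron genes that were lower, with 0 higher.

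Among 22 hepatocyte transcription factors 6 were lower, among them the nuclear receptor NR5A2 (−1.05 ± 0.08), FOXA1, PPARA, NR2F2 and NR2F1 (−0.70 to −0.51), and CEBPA was higher (0.63 ± 0.09), while HNF4A (0.13) did not separate. Proteasome subunits had 5 of 25 higher and 0 lower, led by PSMA1 (1.63 ± 0.17). The initiator caspase gene CASP8 (0.90 ± 0.09) and the effector CASP6 (0.97 ± 0.07) were higher. They were 2 of 16 caspase and adaptor genes, with 0 lower, a share close to the 11.5% of all features that were higher. ALB, albumin, did not separate, at 55146 to 62990 CPM on the CRMI side and 52358 to 73999 CPM on the GRNY side (−0.03 ± 0.07), nor did CYP1A1, the classic target of the aryl hydrocarbon receptor (−0.21 ± 0.22), or any of the 4 tested genes of its list. CYP1A1 varied widely between GRNY-side dishes, with 117, 15.2, 21.9 and 187 CPM in GRNY 1 to 4. JRMI 1 to 4 had 168, 12.9, 76.3 and 101 CPM, while CRMI-side dishes spanned 40.1 to 131 CPM. Whether CYP1A1 differs apart from the low dishes was not tested. Stress and lipid lists stayed near the background: 3 of 18 heat shock genes were lower and 0 higher, 3 of 17 genes of the ER unfolded protein response lower and 1 higher, 3 of 18 cholesterol synthesis genes higher and 1 lower, and 0 of 9 fatty acid synthesis genes separated the sides.

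**Figure D3:**
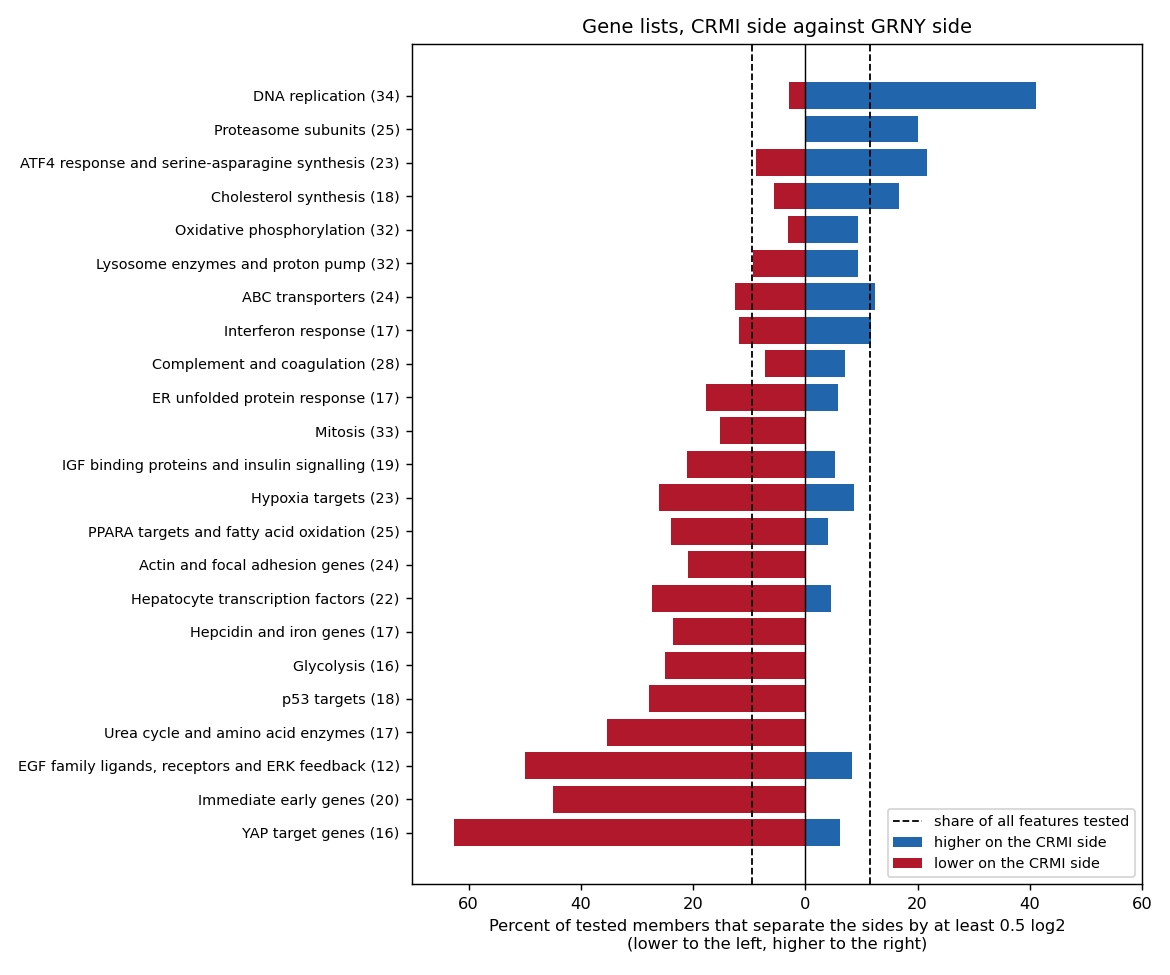
Share of tested members (number in brackets) higher (right) or lower (left) on the CRMI side by at least 0.5 log2 without overlap of site means, for lists with at least 12 tested members and at least 4 separated ones. Dashed lines give the shares of all features, 11.5% higher and 9.49% lower; YAP targets, immediate early genes and the EGF family reach furthest left and DNA replication furthest right.

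The largest differences among features with a mean of at least 5 CPM included several that varied widely between dishes. HNRNPCL4 had site means of 92.5 to 134 CPM on the CRMI side and 0.937 to 15.1 CPM on the GRNY side (4.72 ± 0.63), but control dishes spanned 0.468 to 122 CPM. It belongs to a family of near-identical copies, so its counts are uncertain. DUT, the dUTPase that keeps uracil out of DNA, differed by 2.23 ± 0.24, with control dishes at 8.07 to 70.1 CPM. JRKL (2.63 ± 0.20), KIF1BP (2.05 ± 0.27) and C17orf58 (1.68 ± 0.16) had every control dish between the side means. LOC102724562, a transcribed pseudogene in RefSeq, differed by 2.62 ± 0.46, with site means of 450 to 753 CPM on the CRMI side and 192 to 455 CPM on the GRNY side, which overlap on the linear scale since single dishes were listed at 0. KCTD18, PEX3, NUP35, LSM5, GCSH and CEP70 made up the rest of the 12 highest (1.70 to 1.86), and control dishes spanned both side means for PEX3, LSM5 and GCSH. Single GRNY-side dishes lay far below others of their site and lowered its log2 mean. GCSH had 31.2, 1.32, 2.85 and 79.9 CPM in GRNY 1 to 4, and 77.1, 2.38, 22.9 and 40.3 CPM in JRMI 1 to 4. LSM5, CEP70, DUT and KIF1BP were also low in GRNY 2, GRNY 3 and JRMI 2. These genes and GCSH were low in FRWI 1 and LRMN 4 as well, with GCSH at 3.81 and 2.80 CPM and DUT at 1.27 and 1.82 CPM. CTRL 1 was the lowest control dish in each of them, at 14.5 CPM of GCSH and 8.07 CPM of DUT. GRNY 2, GRNY 3 and JRMI 2 scored highest on the second component (52.6, 42.3 and 48.7), then LRMN 4 (32.8), FRWI 1 (23.9) and CTRL 1.

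Among the 12 lowest, after ANKRD1, PIM1 and CCN2, came CLU, clusterin (−1.64 ± 0.15), HLA-C, a class I antigen-presenting molecule (−1.54 ± 0.09), the formin DIAPH2 (−1.53 ± 0.20), KYAT1, a kynurenine aminotransferase (−1.50 ± 0.11), OSGIN1, an NRF2 target (−1.45 ± 0.17), the deacetylase HDAC1 (−1.35 ± 0.09) and ASMTL (−1.32 ± 0.10), then POLD2 and EGFR. HLA-C has close relatives among the class I genes, so its count may be shared. HDAC1 had site means of 67.5 to 86.7 CPM on the CRMI side, 165 to 242 CPM on the GRNY side and control dishes at 81.3 to 208 CPM. Control dishes of CLU and ASMTL spanned both side means.

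The features whose site means followed the axis most closely over all 16 sites were GTF3A, ANAPC5 and KIF1BP (Spearman's rho 0.99, 0.98 and 0.98) and, in reverse, MEMO1 and KDM6B (−0.99 and −0.98). These are descriptions over 16 points, since the axis was made from the same values.

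Content of G and C moved with the contrast. The median GC content of the longest annotated transcript was 44.3% for features higher on the CRMI side, 51.8% for lower ones and 48.7% for all tested features. Among 5 groups of equal size by GC content, in the lowest 19.1% were higher and 5.02% lower on the CRMI side, and in the highest 5.75% were higher and 11.1% lower. The slope of log2 CPM on GC content, per 10 percentage points and relative to the mean of the 14 sites, was −0.085 to 0.0091 over CRMI-side sites, 0.022 to 0.12 over GRNY-side sites, −0.064 at BRWI, 0.024 at RRMI and −0.0030 in controls. After each library was corrected for GC content, 741 features were higher and 649 lower among 6874 with a GC value, of which 668 and 571 were among those called without it. The corrected lists kept their direction, with 9 of 16 YAP targets, 8 of 20 immediate early genes lower and 15 of 34 replication genes higher. The correction was chosen after seeing the data. It used the GC content of the longest transcript, since probe positions were not stated, so it could not correct for the GC content of the probe site.

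**Figure D4:**
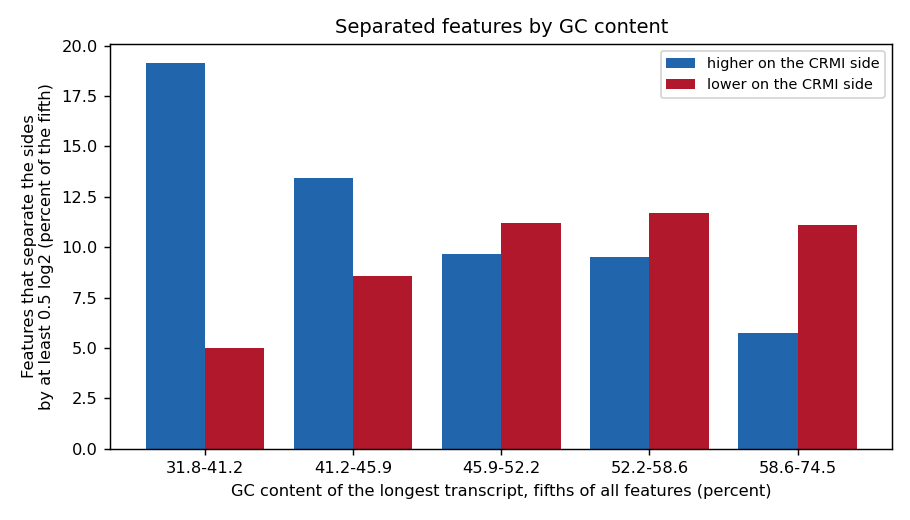
Percent of features that separate the sides by at least 0.5 log2, in groups of equal size by transcript GC content (percent). The share higher on the CRMI side is 19.1% in the lowest group and 5.75% in the highest, and the share lower is 5.02% in the lowest group and 11.1% in the highest.

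The tests that follow are of contrasts other than the difference between the sides: whether the midpoint of the sides stood apart from purified water, whether BRWI and RRMI did, and whether sites within a side differed. They are not wholly independent of how the sides were formed. They use the same side libraries, and BRWI and RRMI were among the 16 sites of the axis and were left out of both sides for their scores on it. All are edgeR quasi-likelihood tests in 1 model of 68 libraries with Benjamini-Hochberg adjustment over 6916 features, and fold changes are log2 with the model's standard error. The comparisons with controls share the 8 control dishes.

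Halfway between the sides, 9 features differed from controls at an adjusted p under 0.05 (0.13% of those tested; 6, or 0.0868%, higher and 3, or 0.0434%, lower; 313 had an unadjusted p under 0.05, DESeq2 called 14, and 2 were called with all libraries kept). Metallothionein genes led the 6 that rose. These genes are close copies of each other on chromosome 16, so counts may be partly shared between them. MT1M (chr16:56632233-56633986, plus strand) had site means of 20.9 to 50.5 CPM on the CRMI side (median 30.3) and 18.5 to 62.9 CPM on the GRNY side (median 26.1), and control dishes had 10.3 to 22.1 CPM (median 15.2). The sides overlapped fully and only MIWI, at 20.9 CPM, and VROH, at 18.5 CPM, lay inside the range of the controls. The midpoint rose by 0.90 ± 0.10 (edgeR adjusted p = 3.26e-09). MT1G (chr16:56666731-56668065, minus strand) rose by 0.73 ± 0.08 (edgeR adjusted p = 3.26e-09), with 243 to 519 CPM over CRMI-side sites, 250 to 782 CPM over GRNY-side sites and 184 to 293 CPM in control dishes. MT2A, whose promoter is shown above, rose by 0.74 ± 0.16 (edgeR adjusted p = 0.0222), a call lost without LRMN and without any of 7 of the 8 controls.

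The other rises were NRN1, a neurite outgrowth factor (0.46 ± 0.10, edgeR adjusted p = 0.0250), MRPS6, a mitochondrial ribosomal protein (0.45 ± 0.07, adjusted p = 0.000333), and the chemokine CCL20 (0.27 ± 0.06, adjusted p = 0.0252), which was named after its values were seen. ANKRD1 was the best known of the 3 that fell (−0.47 ± 0.10, adjusted p = 0.0213). Set against controls, its difference was −1.39 ± 0.14 on the CRMI side and 0.47 ± 0.11 on the GRNY side. FAM229B (−0.62 ± 0.13, adjusted p = 0.0222) and ARMH1 (−1.0 ± 0.21, adjusted p = 0.0213) are genes of little known function at low counts, with 21 to 48 and 8 to 21 reads in control dishes. Leaving out 1 control or 1 site at a time kept MT1M, MT1G and MRPS6 in all 22 fits, and 3 or 4 features were called without CTRL 2, 4, 5, 6 or 8. ANKRD1 was lost in 4, each without a control (highest adjusted p = 0.254), ARMH1 in 5, FAM229B in 7, NRN1 in 9 and CCL20 in 10.

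**Figure D5:**
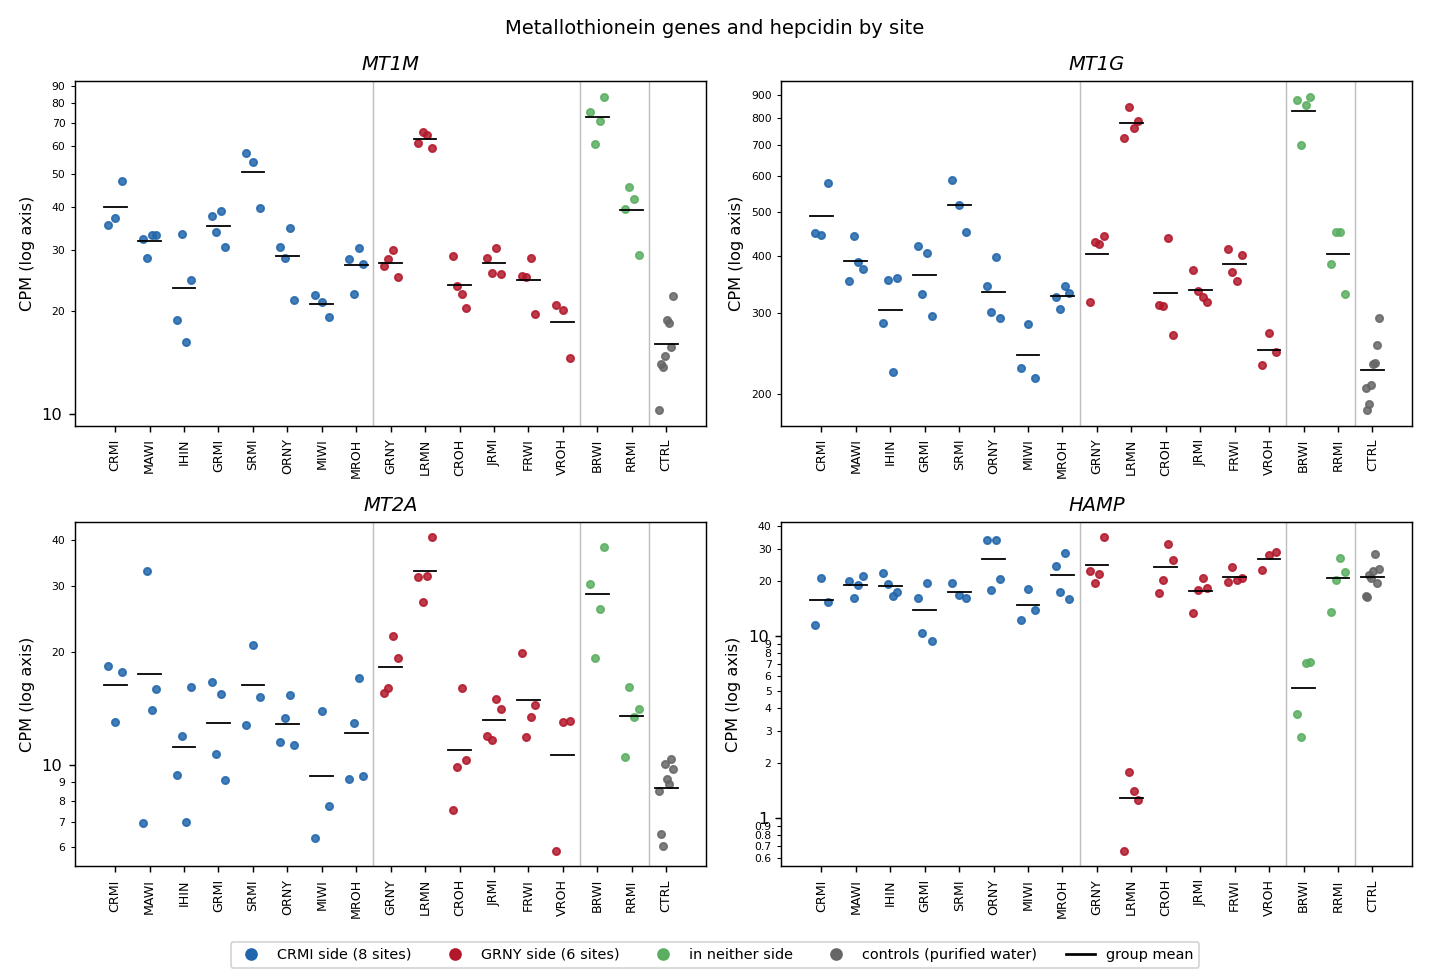
CPM on a log axis in each dish (points) and site mean (bars) for MT1M, MT1G, MT2A and HAMP. The sides overlap in all 4 genes, LRMN and BRWI stand highest in the metallothionein genes and lowest in HAMP, and controls are among the lowest in MT1M and MT1G.

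Sites of the CRMI side differed among themselves in 2 features (0.0289% of those tested; 376 at an unadjusted p under 0.05), MT1G and MT1M (edgeR F = 10.2 and 9.78, adjusted p = 0.000232 for each). SRMI was highest, at 519 ± 68.3 CPM of MT1G, and MIWI lowest, at 243 ± 36.5 CPM (n = 3 each). Without SRMI the MT1M call was lost (adjusted p = 0.155). The next in rank, AKAP12, PEX5 and CYB5D2, did not pass (adjusted p = 0.109, 0.225 and 0.225).

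Sites of the GRNY side differed in 43 features (0.622%; 667 at an unadjusted p under 0.05), and all of these calls were lost without LRMN. With all libraries kept 16 were called, with no filter on low counts 24, and by DESeq2 65. HAMP had 0.658, 1.78, 1.41 and 1.26 CPM in the 4 LRMN dishes, while the other GRNY-side sites had means of 17.6 to 26.5 CPM (F = 43.3, edgeR adjusted p = 3.28e-14). MT1G averaged 782 CPM at LRMN and 250 to 404 CPM at the other 5 sites (F = 32.2, adjusted p = 8.91e-12), and MT1M 62.9 CPM at LRMN and 18.5 to 27.6 CPM at the others (F = 27.7, adjusted p = 1.20e-10). LCN15, a lipocalin, averaged 75.4 CPM at LRMN and 210 to 255 CPM at the others (F = 21.8, adjusted p = 8.04e-09), and HBEGF 76.7 CPM at LRMN and 42.6 to 58.5 CPM at the others (F = 12.9, adjusted p = 3.17e-05). PLPPR1, of the lipid phosphatase-related family, was highest at LRMN as well, with 64.1 ± 12.2 CPM (SD, n = 4; F = 12.2, adjusted p = 5.31e-05), and was lower on the CRMI side as a whole, at 21.4 to 26.0 CPM, against 36.2 to 64.1 CPM on the GRNY side (−0.92 ± 0.12). LRMN combined low HAMP with high metallothionein while keeping its side's level of ANKRD1, with 679, 704, 673 and 750 CPM in its dishes.

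BRWI differed from controls in 79 features (1.14%; 43, or 0.622%, higher and 36, or 0.521%, lower; 896 at an unadjusted p under 0.05). MT1G had 879, 701, 858 and 893 CPM in the BRWI dishes and 184 to 293 CPM in controls, a rise of 1.89 ± 0.12 (edgeR adjusted p = 5.46e-19). MT1M rose by 2.19 ± 0.14 (adjusted p = 1.06e-18) and MT2A by 1.74 ± 0.23 (adjusted p = 1.01e-06), and of 7 tested genes of metal response 5 rose. MT1X rose by 1.89 ± 0.44 (adjusted p = 0.0130) on 31 reads in all 4 BRWI dishes, of which one was at 0, and lost its call without BRWI 4. HAMP fell, at 3.72, 2.76, 7.08 and 7.15 CPM in BRWI dishes and 16.4 to 28.2 CPM in controls (−1.94 ± 0.24, adjusted p = 1.16e-07). INHBB, an activin subunit, fell (−1.11 ± 0.22, adjusted p = 0.00296), as did METTL27 (−1.06 ± 0.28, adjusted p = 0.0330), which was lost in 6 of 12 fits that left out a library. GPD1 fell (−0.84 ± 0.20, adjusted p = 0.0143), with a mean of 6.50 CPM, and PSAT1 fell (−0.72 ± 0.17, adjusted p = 0.0122). ANKRD1, at 665 CPM, and CCN2, at 442 CPM, were in the GRNY-side range and did not pass the test against controls (0.46 ± 0.16 and 0.50 ± 0.18, adjusted p = 0.167 and 0.189). Without BRWI 2, 26 features were called, without BRWI 3, 46, and with all libraries kept, 10.

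RRMI differed from controls in 198 features (2.86%; 100, or 1.45%, higher and 98, or 1.42%, lower; 938 at an unadjusted p under 0.05). ETNPPL, which breaks down phosphoethanolamine, had 6.24, 8.56, 5.08 and 10.3 CPM in RRMI dishes and 1.13 to 2.07 CPM in controls (2.24 ± 0.24, edgeR adjusted p = 1.22e-09). AKR1B1, the aldose reductase of the osmotic stress response, rose by 1.54 ± 0.27 (adjusted p = 0.000138), MRPS6 by 1.24 ± 0.11 (adjusted p = 4.91e-12), NRN1 by 1.33 ± 0.15 (adjusted p = 4.47e-09), MT1F by 1.49 ± 0.34 (adjusted p = 0.00388) and MT1M by 1.30 ± 0.14 (adjusted p = 1.29e-09). ECSCR (−1.44 ± 0.31, adjusted p = 0.00213), GRAMD1C (−1.40 ± 0.40, adjusted p = 0.0361) and C11orf65 (−1.16 ± 0.25, adjusted p = 0.00237) fell most, at up to 5.41 CPM in any control dish, and GRAMD1C was lost in 7 of 12 fits that left out a library. Without RRMI 2 or RRMI 4, 123 and 115 features were called, and with all libraries kept, 59. ANKRD1 fell at RRMI (−0.76 ± 0.17, adjusted p = 0.00372), with 320, 252, 268 and 300 CPM, which puts it between the sides and below every control dish.

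RRMI and BRWI share no controls in their direct comparison, in which 93 features differed (1.34%; 45, or 0.651%, higher and 48, or 0.694%, lower at RRMI; 943 at an unadjusted p under 0.05; DESeq2 called 142). ANKRD1 was lower at RRMI (−1.22 ± 0.20, edgeR adjusted p = 4.14e-05), where its 4 dishes had 252 to 320 CPM, than at BRWI, where they had 490 to 925 CPM, and CCN2 was lower too (−0.92 ± 0.22, adjusted p = 0.0133). MT2A was lower at RRMI (−1.10 ± 0.28, adjusted p = 0.0260) and lost its call in 5 of 8 fits that left out a dish. HAMP was higher at RRMI (1.91 ± 0.26, adjusted p = 2.35e-06), with 13.4, 20.1, 26.6 and 22.3 CPM. KRT39, a hair keratin, was lower at RRMI, with 1.62 to 2.36 CPM there and 4.11 to 7.19 CPM at BRWI (−1.47 ± 0.30, adjusted p = 0.00243). CDR2L and MEX3B were higher at RRMI (2.71 ± 0.60 and 2.11 ± 0.45, adjusted p = 0.00657 and 0.00387) on few reads: CDR2L had 50 reads in the 4 RRMI dishes and 5 in the 4 BRWI dishes, of which some were at 0, and MEX3B had 94 and 15. Without RRMI 4, 35 features were called, without BRWI 4, 162, with all libraries kept, 15, and with no filter on low counts, 57. Counts were 42 without BRWI 2, 46 without BRWI 1 and 55 without BRWI 3 or RRMI 2.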

How the data were processed

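TempO-Seq libraries of HepG2 dishes were compared from the deposited table of estimated counts per gene symbol. The submitters' processing notes name Salmon and the GRCh38 build. Its version, the probe positions and the scaling of the table were not stated there or in the labels. The deposited values are called normalized, but 93.4% of values under 20 (median over libraries, lowest 91.6%) lay within 0.02 of a whole multiple of a step near 1 (0.993 to 1.00), and library totals differed, so the values were rounded and used as estimated counts. The part of the table analysed here holds 31012 entries, of which 12425 had counts. Its alphabetical order ends before RAI14, and later symbols were not analysed here.

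Features were kept by filterByExpr with a minimum count of 10 (6916 features), scaled by TMM and tested with edgeR 4.0.16 (R 4.3.3, limma 3.58.1), with 1 mean for each of 17 groups over 68 libraries (51 residual degrees of freedom, common biological coefficient of variation 0.199). Levels are CPM. Differences between sides are unweighted means of site means of log2 CPM with a prior count of 2, with no test. Contrasts tested were the midpoint of the sides, BRWI and RRMI against controls, RRMI against BRWI, and F tests over the sites within a side. Depth and composition were compared by exact permutation over site means. Numbers in the titles did not match all columns for MIWI and GRMI 1, so these entered as members of their groups only. Intervals and errors cover the spread between dishes or sites. Named genes were the 12 largest separated differences in each direction at a mean of at least 5 CPM, up to 4 per list of the 47 lists, the 5 largest calls in each direction at the midpoint, the 3 largest at each other tested comparison, the 5 smallest p of each F test, and 14 set genes. Other members of lists are named with their own differences. The sites, lists and named genes were chosen with earlier results of these data known. Alternatives were RLE scaling, no filter, all libraries, a replicate block, a prior count of 0.5, medians of sites, a difference of at least 1, DESeq2 1.42.0, and leaving out libraries or sites in turn. GC content came from GENCODE transcripts, with symbols matched for 99.4% of features. The edgeR steps were also run on simulated counts with independent dishes and a single mean per feature, apart from sets of changed features. The simulation held no GC trend and no axis between sites, so it does not show how the steps perform on these data.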

Additional observations from a re-analysis of the deposited data

Results flagged for a closer look

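Among 114 groups of values examined for a sample far from the others, 8 stood out. That is not far above the share of about 1 in 20 that chance gives, and the groups share libraries, so they are not independent. LRMN lay far from the other 5 GRNY-side sites in 4 genes: its site mean was 782 CPM for MT1G (next 404), 62.9 CPM for MT1M, 32.9 CPM for MT2A and 1.28 CPM for HAMP (next 17.6). VROH was far above the other GRNY-side sites for JRKL, at 2.32 CPM (next 1.44). Single control dishes stood apart for CCN2 (CTRL 7, 485 CPM, next 348), OSGIN1 (CTRL 6, 17.9 CPM, next 12.3) and KCTD18 (CTRL 1, 1.14 CPM, next 4.68).

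RRMI and BRWI, both set against the same controls, differed from each other by the direct edgeR test. The differences (RRMI minus BRWI, log2, 4 dishes each) were 2.71 for CDR2L, 2.11 for MEX3B, 1.91 for HAMP, −1.47 for KRT39, −1.22 for ANKRD1 and −1.10 for MT2A, with edgeR adjusted p of 0.00657, 0.00387, 2.35e-06, 0.00243, 4.14e-05 and 0.0260.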

How the results depend on the processing

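Over 1806 alternative values of 84 results (not every setting applies to each result), no called value reversed. Counts of features and F values could not reverse by their nature. Of the values for counts and depth measures, 127 stayed within a set limit and 34 moved beyond it. Of the values for single genes, 1539 stayed the same, 95 lost their call, 2 gained one and 9 differences moved. The differences of ALB, CYP1A1, HAMP, MT1G and MT1M, whose site means overlap between the sides, changed sign under some settings. RLE scaling gave 796 higher and 655 lower features and 9 calls at the midpoint. Keeping all libraries left 72 features lower on the CRMI side (1 left-out VROH library held few reads) and 2, 10, 59, 15 and 16 calls for the midpoint, BRWI, RRMI, RRMI against BRWI and within the GRNY side. Without a filter, RRMI against BRWI had 57 calls and the GRNY side 24. A difference of at least 1 left 182 higher and 95 lower. DESeq2 called 14 at the midpoint, 142 for RRMI against BRWI and 65 within the GRNY side. Leaving out 1 library or site at a time gave 3 to 12 calls at the midpoint, 26 to 85 for BRWI, 115 to 200 for RRMI, 35 to 162 for RRMI against BRWI, 1 to 2 within the CRMI side, 0 (without LRMN) to 56 within the GRNY side, and 591 to 885 higher and 531 to 726 lower features.

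Little pairing of dishes by replicate number was seen, which does not exclude it. Same-numbered deviations had a median correlation of 0.017 (other numbers −0.0024). Of 60 libraries, 21 correlated best with their own number out of 4. With the number as a block, and MIWI and GRMI 1 left out for want of a number, calls were 2 at the midpoint, 18 for BRWI, 92 for RRMI, 87 for RRMI against BRWI, 4 within the CRMI side and 35 within the GRNY side, with 827 features higher and 717 lower. These counts combine the block with the loss of those libraries. Features at a few CPM rest on few reads per dish, which limits their precision. The cause of these changes was not tested.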
